A study of Mus musculus with 18 samples.

Results

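Snap-frozen mouse hippocampus was compared with snap-frozen mouse cortex at the level of messenger RNA, gene by gene, in 6 of the 18 bulk RNA-seq libraries of the series. Snap freezing here was direct immersion of the tissue in liquid nitrogen, with no cryoprotectant. The comparison used every library of that treatment, 3 labelled hippocampus and 3 labelled cortex, and 18235 genes whose symbols stood in the count tables of both regions. The remaining libraries came from fresh tissue of both regions, kept as controls, and from vitrified tissue of both regions, loaded stepwise with ethylene glycol, dimethyl sulfoxide and sucrose, cooled, rewarmed and unloaded, with 3 libraries in each group. All groups were homogenised in TRIzol and sequenced as strand-specific poly(A) libraries on the DNBSEQ platform. Strain, age, sex and the animal behind each library were not given in the sources used here, so the p-values below cover the variation among libraries, part of which may be technical. Hippocampal and cortical counts were deposited as separate tables, so that region and table cannot be told apart.

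The hippocampus and the neocortex both arise from the dorsal telencephalon and consist largely of glutamatergic projection neurons with a minority of GABAergic interneurons. Dentate granule cells and the pyramidal cells of the CA fields make up the hippocampal circuit, while cortical projection neurons are arranged in layers that express characteristic transcription factors. Neurons of both regions load glutamate into vesicles mainly with Slc17a7 (VGLUT1). The related transporter Slc17a6 (VGLUT2) is used mainly by glutamatergic neurons of the thalamus, hypothalamus, midbrain and hindbrain.

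The libraries were of similar depth and the replicates were close, with an exception. Total counts were 16632142 to 16696505 in hippocampus and 17289466 to 17480302 in cortex, within a range of 15725356 to 17480302 over the series, and 16424 to 16586 genes had a count above 0. A total of 3 counts in a library corresponded to 0.17 to 0.173 CPM, the count scaled to the library size. Variation between replicates beyond counting error had a typical coefficient of 3.19%. Snap-frozen cortex replicate 3 stood apart: the chi-square per degree of freedom was 1.366 between the other cortical replicates, 3.895 and 3.574 between each of them and replicate 3, and 1.424 to 1.482 among hippocampal replicates. In a principal component analysis of all 18 libraries, the second component, with 24.5% of the variance, placed the 3 snap-frozen hippocampus libraries at 56.6 to 57.2 and the other 15 libraries between -28.5 and -0.7.

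Of the markers checked against the tissue labels, the summed levels of dentate and cortical layer genes followed the labels and that of CA field genes did not. Gene by gene, the CA field markers were divided, as given below. The hippocampal libraries also carried genes of regions outside the telencephalon. Dentate granule cell markers summed to 1110 to 1120 CPM in the libraries labelled snap-frozen hippocampus and 917 to 950 CPM in snap-frozen cortex, and cortical layer markers to 1200 to 1230 CPM and 1750 to 1860 CPM. In fresh tissue the dentate sums were 1510 to 1560 CPM in hippocampus and 834 to 860 CPM in cortex. Some dentate genes were thus also higher in snap-frozen than in fresh cortex, as given below. Markers of the hippocampal CA fields summed to 1420 to 1440 CPM in snap-frozen hippocampus and to more, 1640 to 1650 CPM, in snap-frozen cortex, while in fresh tissue they summed to 2460 to 2490 CPM in hippocampus and 1540 to 1550 CPM in cortex. A list of 17 thalamic markers, taken up with earlier results of these data known, summed to 869 to 904 CPM in the 3 libraries labelled snap-frozen hippocampus, 233 to 246 CPM in snap-frozen cortex, 206 to 211 CPM in fresh hippocampus and 203 to 218 CPM in vitrified hippocampus. A list of midbrain transcription factors, assembled after the values of its members had been seen, summed to 318 to 324 CPM in snap-frozen hippocampus, 16.5 to 17.9 CPM in snap-frozen cortex and 9.87 to 11.4 CPM in fresh hippocampus. All 3 libraries labelled snap-frozen hippocampus therefore carried these genes at nearly the same level, and no version of the comparison could be made without them. Lists for further regions, also assembled after values were seen, were mixed. Dopamine and serotonin neuron genes summed to 194 to 197 CPM in snap-frozen hippocampus, 77.7 to 87.1 CPM in snap-frozen cortex and 98.7 to 105 CPM in fresh hippocampus, with a mean of 175 CPM from Aldh1a1, a retinaldehyde dehydrogenase gene that other cells express as well. Cerebellar genes summed to 63.9 to 64.9, 51.2 to 53.2 and 24.3 to 25.6 CPM in the same groups, habenular genes to 71.9 to 77.5, 79.8 to 86.2 and 74.9 to 77.9 CPM, and hypothalamic genes to 2.12 to 3.06, 5.77 to 6.18 and 2.03 to 2.09 CPM. Some single genes that define these cells were near 0 in snap-frozen hippocampus: Slc6a3, the dopamine transporter, was between 0.172 and 0.399 CPM, Slc6a4, the serotonin transporter, and Gabra6, a cerebellar granule cell receptor subunit, were each at or below 0.057 CPM, and 15 Hox genes, markers of hindbrain and spinal cord, summed to 0.285 to 0.4 CPM with 10 of the 15 at 0. These single genes were picked after values were seen. Of the tested members of their lists, 4 of 6 dopamine and serotonin neuron genes were higher in hippocampus than in cortex and 2 lower. Of 4 tested cerebellar genes, 3 were higher and 1 lower. The libraries are called snap-frozen hippocampus below, after their label. The part that thalamic and midbrain transcripts had in the other differences was not tested.

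**Figure D1:**
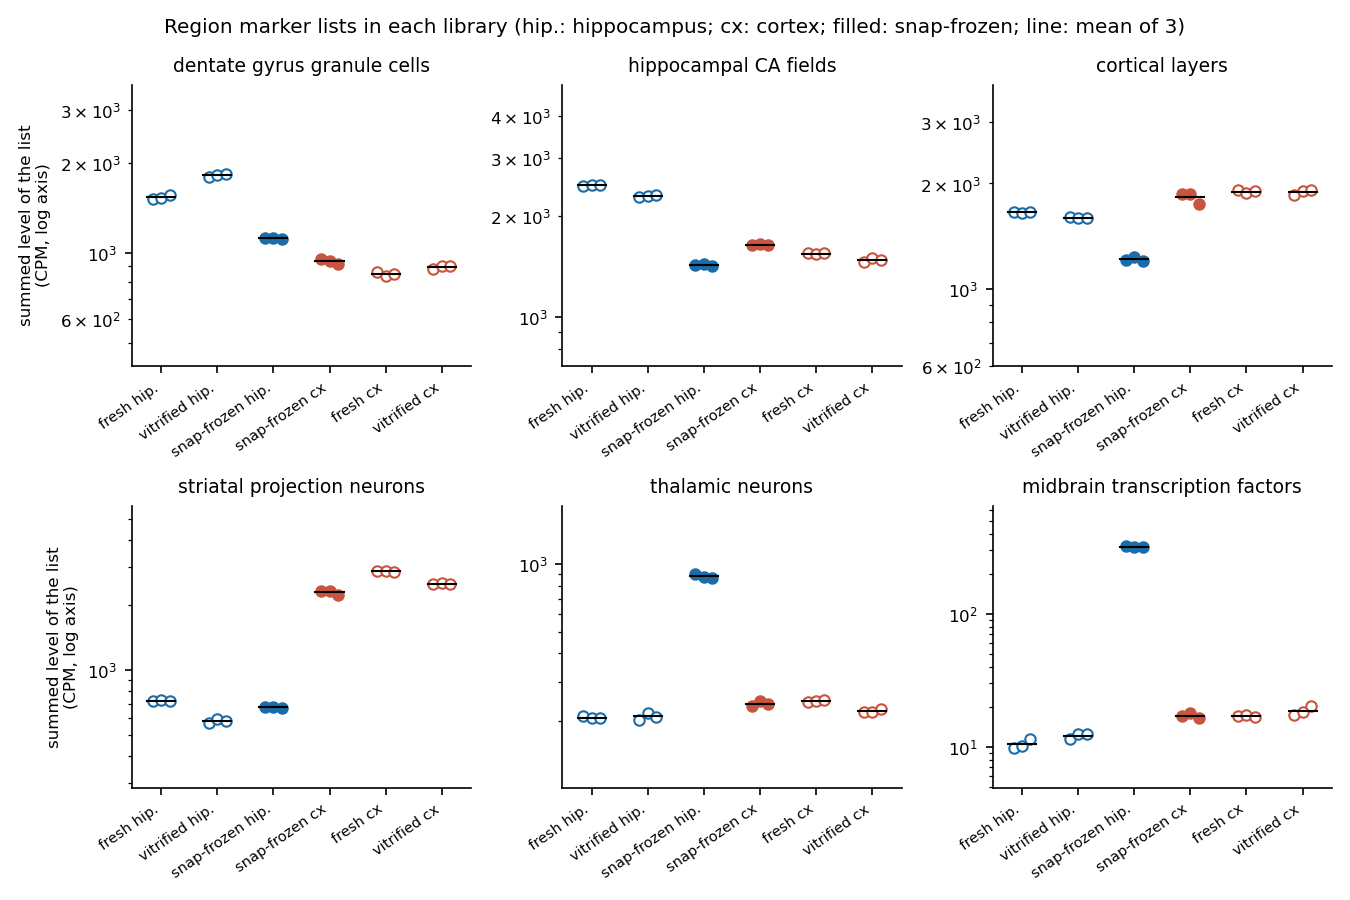
Summed CPM (log axis) of 6 marker lists in each of the 18 libraries, by region and tissue state, each point a library. Thalamic markers lie at 869 to 904 CPM in the 3 snap-frozen hippocampus libraries and lower in each of the other 15 libraries, and the midbrain transcription factors at 318 to 324 CPM against at most 20.4 CPM.

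The start regions of Slc17a7, Slc17a6 and Tcf7l2 are shown because these genes, the main vesicular glutamate transporters and a transcription factor of thalamic neurons, carry abundant changes described first. Slc17a7 lies on chr7:45163949-45176142, Slc17a6 on chr7:51622006-51671119 and Tcf7l2 on chr19:55741820-55933654, all on the plus strand of GRCm38 (GENCODE M21), and all are protein coding. The sequences are 250 bases upstream of a RefSeq transcript start on GRCm38.p6, at chr7:45163671-45163920, chr7:51621580-51621829 and chr19:55741560-55741809, written 5′ to 3′ on the plus strand with each CG dinucleotide in capitals.
Slc17a7: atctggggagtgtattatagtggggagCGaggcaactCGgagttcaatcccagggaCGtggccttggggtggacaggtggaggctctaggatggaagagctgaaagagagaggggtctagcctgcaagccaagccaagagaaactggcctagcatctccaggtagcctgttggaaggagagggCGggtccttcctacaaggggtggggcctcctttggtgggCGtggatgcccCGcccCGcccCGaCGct
Slc17a6: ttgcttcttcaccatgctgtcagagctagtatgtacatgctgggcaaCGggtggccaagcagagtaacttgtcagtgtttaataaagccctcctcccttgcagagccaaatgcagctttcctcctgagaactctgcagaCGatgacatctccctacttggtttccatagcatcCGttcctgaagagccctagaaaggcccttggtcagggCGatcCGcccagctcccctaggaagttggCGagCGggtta
Tcf7l2: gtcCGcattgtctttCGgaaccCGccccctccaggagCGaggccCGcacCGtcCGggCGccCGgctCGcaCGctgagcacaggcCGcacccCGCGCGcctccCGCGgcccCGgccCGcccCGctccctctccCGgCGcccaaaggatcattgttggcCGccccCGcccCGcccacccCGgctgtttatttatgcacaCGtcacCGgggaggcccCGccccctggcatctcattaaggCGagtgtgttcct
The Slc17a7 sequence holds 9 CG dinucleotides, a number reached by 40.3% of 32851 promoter sequences of the same length. The Slc17a6 sequence holds 7, reached by 46.3%. The Tcf7l2 sequence holds 30, reached by 5.94%, against a median of 6 over all promoters. Slc17a6 and Tcf7l2 each have a further listed start, with 3 and 7 CG dinucleotides upstream of it.

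The vesicular glutamate transporters differed in opposite directions between the regions. Slc17a7 was 712, 714 and 723 CPM in the hippocampal libraries and 1590, 1610 and 1540 CPM in the cortical libraries. The groups did not overlap, and the log2 fold change was -1.15 with an SE of 0.03 (adjusted p = 1e-20 by the edgeR quasi-likelihood test with Benjamini-Hochberg adjustment over 14528 genes). Slc17a6 was 279, 265 and 270 CPM in hippocampus and 36.9, 37 and 40.6 CPM in cortex. Again no library overlapped, and hippocampus was higher by 2.82 ± 0.05 (SE, as in the brackets below) on the log2 scale (adjusted p = 5e-25). Tcf7l2, an effector of Wnt signalling that marks thalamic and habenular neurons, was 149, 138 and 135 CPM in hippocampus and 4.18, 4.44 and 4.24 CPM in cortex, with a log2 fold change of 5.02 ± 0.07 (adjusted p = 5.9e-26). In fresh tissue Slc17a7 averaged 1750 CPM in hippocampus and 1480 CPM in cortex, Slc17a6 12.1 and 33.4 CPM, and Tcf7l2 4.6 and 4.19 CPM. The cortical levels of these genes were thus close in both states, while the hippocampal levels were far apart. In bulk tissue, fewer cells of a type and less RNA per cell cannot be told apart.

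Across the transcriptome, 4901 of 14528 tested genes (33.7%) were higher in snap-frozen hippocampus and 4510 (31.0%) were higher in snap-frozen cortex at an adjusted p of at most 0.05. Counts of called list members below are to be read beside these shares of all tested genes. With a log2 fold change over 1 as well, 827 genes (5.69%) were higher in hippocampus and 519 (3.57%) in cortex. Without snap-frozen cortex replicate 3 the counts of called genes were 4784 and 4699. The 3 libraries of each region did not overlap for 67.9% of tested genes. Statements that the libraries of single genes did not overlap are to be read beside this share. Many of those genes were picked by a small p or after their values were seen, so that the lack of overlap only describes them. The balance of directions rested on the scaling: with library totals in place of TMM factors, the median of all genes moved by 0.1 on the log2 scale, and 6062 genes were higher in hippocampus and 3296 in cortex (64.8% and 35.2% of calls, against 52.1% and 47.9%). The genes at the edge of the fold rule were Nyx and Piwil2, both at 1.00, and on the cortical side Ldha and Klf6.

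**Figure D2:**
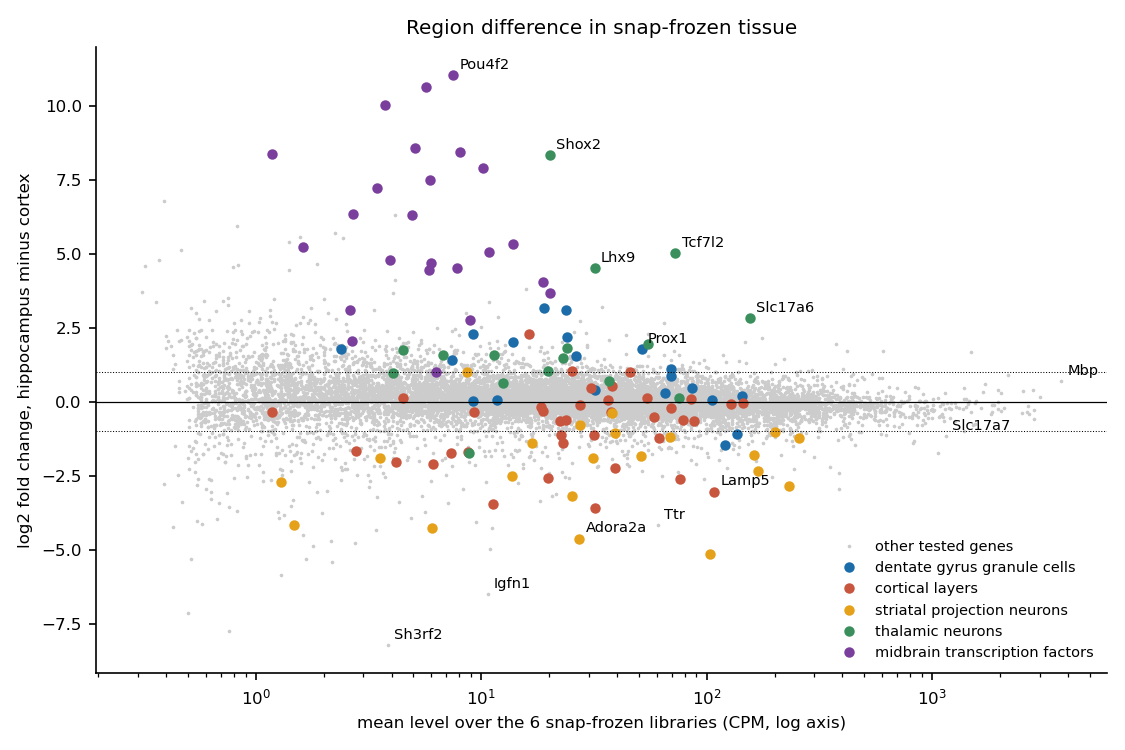
Log2 difference between snap-frozen hippocampus and snap-frozen cortex against mean CPM (log axis), a point per tested gene, with marker lists coloured and lines at 1 and -1. Nearly all midbrain transcription factors and most thalamic genes sit above the upper line, most striatal genes lie below the lower line, and the median of all genes is 0.01; values of genes with at most 3 counts in a region depend on the prior count of the fit.

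The 10 genes with the largest differences toward hippocampus were all homeobox, zinc-finger or HMG-box transcription factors. Shox2, a homeobox factor of thalamic neurons, was 39.4, 40.6 and 40.1 CPM in hippocampus and 0.115, 0 and 0.229 CPM in cortex, a log2 fold change of 8.35 ± 0.18. Irx2, of the Iroquois family, was 21.2, 20.5 and 19.4 CPM in hippocampus and at most 0.115 CPM in cortex, with a log2 fold change of 7.91 ± 0.21. The rule that picked these genes required that the libraries of the regions did not overlap. Pou4f2, a POU factor of visual projection neurons and the dorsal midbrain, was 14.8, 14.4 and 15.6 CPM in hippocampus and had no count in any cortical library. Over the group, 788 hippocampal counts against 0 put it at least 261-fold higher, with 3 counts taken as the floor over the cortical group. Pax7, a paired-box factor of the dorsal midbrain, at 11.4, 11.6 and 11.2 CPM, and Gata3, a factor of midbrain GABAergic neurons, at 7.95, 7.01 and 7.54 CPM, were at least 199-fold and at least 131-fold higher by the same floor. The remaining members of the 10 had 1 to 3 cortical counts over the group. En1, which patterns the midbrain and hindbrain, was 10.8, 10.3 and 9.24 CPM in hippocampus, a ratio of 528 with a 95% counting interval of 94.3 to 20900. Barhl1 was 17, 15.8 and 15.5 CPM (ratio 420, interval 116 to 3480), and Pou4f1, the habenular and sensory POU factor, was 11.1, 11.2 and 13.2 CPM (206, 70.2 to 1000). Sox14, a factor of thalamic and midbrain GABAergic neurons, and Irx5 had ratios of 179 (49.1 to 1480) and 92.6 (31.4 to 452). These intervals cover counting error only.

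Most genes of the thalamic list, which includes Shox2, had the same direction. The list was taken up with earlier results known, and Shox2 could pass the filter only through hippocampus, so its counts are a description. Gbx2, a homeobox factor of thalamic development, was too low to test, at 0, 0.057 and 0 CPM in hippocampus. Of the other 16 genes, 15 were higher in hippocampus and 1 lower, with a median log2 fold change of 1.59 against 0.01 for all tested genes. Lhx9, a LIM homeobox factor, was 60.4, 61.9 and 61.1 CPM in hippocampus and 2.18, 3.06 and 2.69 CPM in cortex (log2 4.52 ± 0.09). Prkcd, a protein kinase C of thalamic relay neurons, was 39.3, 37.3 and 35 CPM against 10.4, 11.8 and 9.39 CPM (1.81 ± 0.08). Hippocampus was higher in every library for both genes. Calb2 (calretinin), Zic1 and Lef1 had log2 fold changes of 1.96, 1.49 and 1.59. Rora, the nuclear receptor of thalamic and cerebellar neurons, was close in the regions at 77.8, 81.4 and 75.9 CPM against 69.3, 74.8 and 70.6 CPM (0.12 ± 0.05, adjusted p = 0.028). Ramp3, a receptor activity-modifying protein, was the exception, at 4.69, 3.93 and 3.8 CPM in hippocampus and 13.1, 14.1 and 13.2 CPM in cortex (-1.71 ± 0.11). Lhx9 was also higher in fresh hippocampus (21.6 CPM) than in fresh cortex (0.996 CPM), with a log2 fold change of 4.43.

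Of the midbrain transcription factor list, 28 genes stood in both tables, and 24 passed the filter on low counts. All 24 tested genes were higher in hippocampus and 23 by more than 1 on the log2 scale, but most were near 0 in cortex and could pass the filter only through their hippocampal level, so these counts are a description. Otx2, which specifies forebrain and midbrain, was 15.6, 13.5 and 15.8 CPM in hippocampus and 0.458, 0.75 and 0.687 CPM in cortex (log2 4.54 ± 0.16). Tfap2d, an AP-2 factor of the dorsal midbrain, was 39.3, 36.7 and 36.9 CPM against 3.04, 2.48 and 3.21 CPM (3.68 ± 0.09). Its relative Tfap2b was 21, 21.2 and 20.5 CPM against 0.63, 0.635 and 0.573 CPM (5.06 ± 0.14). For all 3 the lowest hippocampal library was several times the highest cortical library. By tests of single genes the lists of other regions were mixed: 4 of 6 tested dopamine and serotonin neuron genes were higher in hippocampus and 2 lower, of 7 habenular genes 3 were higher and 2 lower, of 4 tested cerebellar genes 3 were higher and 1 lower, and of 3 tested hypothalamic genes 2 were lower.

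**Figure D3:**
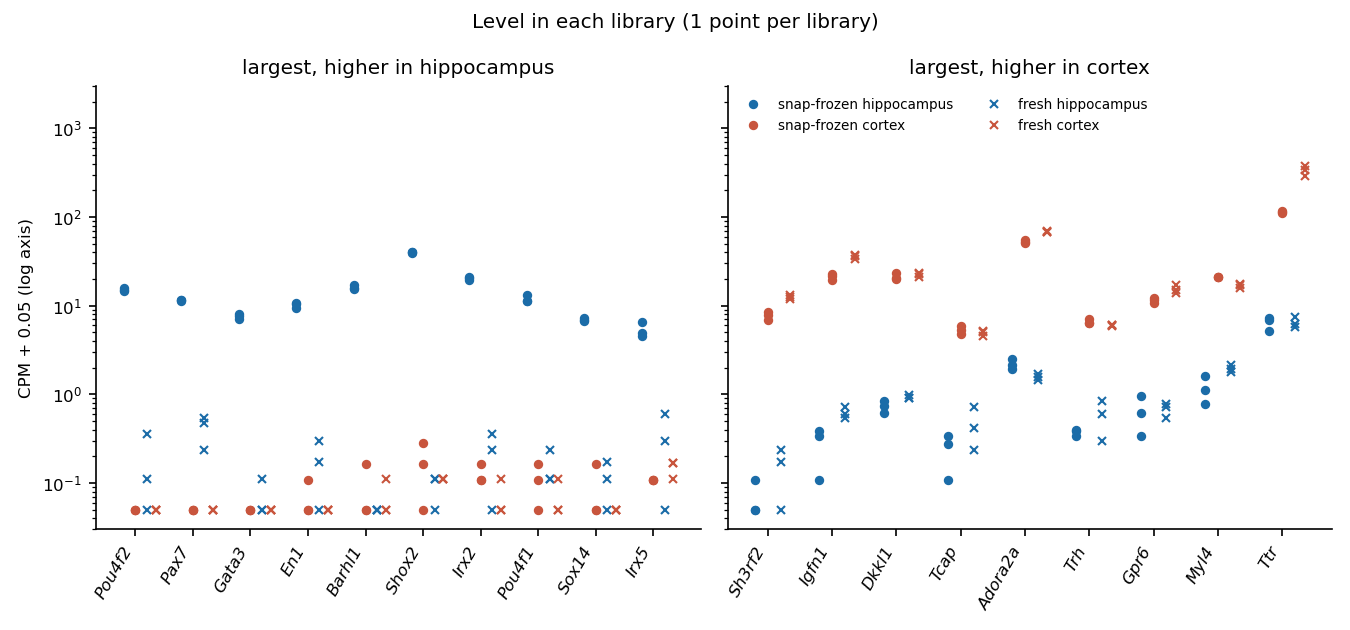
CPM plus 0.05 (log axis) of the genes with the largest difference each way (10 higher in hippocampus and 9 higher in cortex), a point per library, in snap-frozen and fresh tissue of both regions. The genes higher in snap-frozen hippocampus, such as Shox2 at 39.4 to 40.6 CPM, are near 0 in fresh hippocampus, whereas the genes higher in snap-frozen cortex, such as Adora2a at 50.2 to 54.4 CPM, are also high in fresh cortex.

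Of the genes with the largest differences toward cortex, 9 are described here, and they were of a different kind. Adora2a, the adenosine receptor of striatal indirect pathway neurons, was 1.89, 2.45 and 2.1 CPM in hippocampus and 54.4, 52.4 and 50.2 CPM in cortex (log2 -4.62 ± 0.09, adjusted p = 4.8e-23). Gpr6, another receptor of that pathway, had a log2 fold change of -4.28. That the libraries of the regions did not overlap was part of the rule that picked these genes. Ttr, the thyroxine carrier that choroid plexus makes in abundance, was 6.92, 7.24 and 5.16 CPM in hippocampus and 112, 118 and 115 CPM in cortex (-4.17 ± 0.07). Sh3rf2, a RING finger scaffold protein, had 1 count over the hippocampal libraries and 401 over the cortical libraries, where it was 8.48, 7.74 and 6.81 CPM (ratio 404, 95% counting interval 72.1 to 16000). Igfn1, an immunoglobulin and fibronectin domain protein, and Dkkl1, a secreted dickkopf-like protein, had log2 fold changes of -6.50 and -4.96. Tcap and Myl4, which encode proteins of the sarcomere, had values of -4.77 and -4.25, and Trh, the thyrotropin-releasing hormone precursor, had -4.32. All 9 were also higher in fresh cortex than in fresh hippocampus, with log2 fold changes between -3.13 for Myl4 and -6.83 for Sh3rf2.

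Striatal projection neuron genes were higher in cortex nearly throughout. Of 21 tested genes, 20 were lower in hippocampus and 1 was higher, with a median log2 fold change of -1.88, and their summed level was 668 to 678 CPM in hippocampus and 2230 to 2330 CPM in cortex. Ppp1r1b (DARPP-32), the dopamine-regulated phosphatase inhibitor, was 57.2, 58.1 and 56 CPM in hippocampus and 404, 414 and 400 CPM in cortex (-2.84 ± 0.04). Penk, the enkephalin precursor, was 56.2, 55.9 and 56.8 CPM against 274, 278 and 289 CPM (-2.33 ± 0.04). The D1 dopamine receptor gene Drd1 was 5.55, 5.07 and 4.37 CPM against 46.3, 46.1 and 43.8 CPM (-3.20 ± 0.08). The cortical libraries were several times higher for all 3. Six3, a forebrain homeobox factor, was the exception, at 12.1, 11.1 and 11.6 CPM in hippocampus and 5.27, 5.95 and 5.84 CPM in cortex (1.01 ± 0.10). Striatal genes summed to 2850 to 2870 CPM in fresh cortex and 718 to 726 CPM in fresh hippocampus, so libraries labelled cortex carried them in fresh tissue as well.

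Dentate granule cell genes were higher in hippocampus, though by less than in fresh tissue. Of 20 tested genes, 15 were higher and 2 lower in snap-frozen hippocampus, with a median of 0.99, against 1.31 in fresh tissue. Prox1, the homeobox factor that fixes granule cell fate, was 86.7, 79 and 74.5 CPM in hippocampus and 23.1, 23.4 and 22.3 CPM in cortex (1.79 ± 0.06, adjusted p = 1.1e-18). Dsp (desmoplakin) was 34.7, 35.7 and 32.2 CPM against 3.61, 4.16 and 3.55 CPM (3.17 ± 0.09). C1ql2, a synaptic organiser of mossy fibres, was 39.5, 40.2 and 38.9 CPM against 8.88, 8.66 and 7.9 CPM (2.21 ± 0.07). All hippocampal libraries lay above all cortical libraries for these genes. Lct, which marks granule cells, and Il16, a cytokine gene, followed with log2 fold changes of 3.11 and 2.01. Calb1 (calbindin) went the other way, at 64.3, 65.6 and 64 CPM in hippocampus and 179, 171 and 183 CPM in cortex (-1.47 ± 0.04). Against fresh tissue, Prox1 stood at 68% of its fresh level in snap-frozen hippocampus and at 1.57 times its fresh level in snap-frozen cortex, and Dsp at 67.4% and 7.28 times. The fresh cortical level of Dsp was low, at 0.518 CPM. C1ql2 stood at 53% and 3.73 times, Il16 at 44.7% and 3.07 times, and Lct at 69.7% and 2.98 times. Both regions therefore differed from fresh tissue in these genes. These values were chosen for description after they were seen.

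Genes of the CA pyramidal fields were divided. Of 22 tested genes, 13 (59.1%) were higher and 9 (40.9%) lower in hippocampus, with a median of 0.35, against 1.03 in fresh tissue. Their summed level was lower in hippocampus (1420 to 1440 CPM) than in cortex (1640 to 1650 CPM). With library totals as the scaling the split was 13 to 6. Fibcd1, a lectin-like receptor enriched in CA1, was 97.4, 95.8 and 96.9 CPM in hippocampus and 33.6, 32 and 30.4 CPM in cortex (1.58 ± 0.05). Amigo2, an adhesion protein of CA2 and CA3, was 46.8, 48.8 and 44.7 CPM against 11.3, 12.9 and 12.6 CPM (1.92 ± 0.07). Homer3 also had a higher level in hippocampus (1.66), but 25.4% of its exon length lies opposite another gene, and the strand setting of the counting was not given in the sources used here. Neurod6, a factor of pyramidal neurons, was close in the regions at 130, 126 and 126 CPM against 97.7, 101 and 104 CPM (0.32 ± 0.04). Hpca (hippocalcin), a calcium sensor abundant in hippocampal pyramidal cells, was 973, 971 and 1020 CPM against 693, 702 and 674 CPM (0.50 ± 0.03). Both were higher in every hippocampal library, and both had larger fresh differences, of 1.87 and 1.67. Wfs1, the wolframin gene of CA1 and upper cortical layers, and Mpped1 were higher in cortex, by -0.43 and -1.11. Zbtb20, a zinc-finger repressor required for hippocampal pyramidal identity, was 21.2, 19.8 and 18.7 CPM in hippocampus and 9.74, 7.74 and 6.53 CPM in cortex (1.30 ± 0.10), and its snap-frozen hippocampal level was 34.8% of the fresh level. In snap-frozen cortex, Spink8 stood at 3.45 times its fresh level, Fibcd1 at 1.66, Neurod6 at 1.46, Hpca at 1.14 and Zbtb20 at 0.799. The fresh cortical level of Spink8 was low, at 0.537 CPM.

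Cortical layer genes were mostly higher in cortex. Of 38 tested genes, 25 were higher in cortex and 6 in hippocampus, with a median log2 fold change of -0.56. Lamp5, a marker of upper-layer neurons and neurogliaform interneurons, was 23.3, 23.8 and 24.1 CPM in hippocampus and 184, 197 and 196 CPM in cortex (-3.03 ± 0.05). Tbr1, a T-box factor of deep-layer neurons, was 21.7, 21.9 and 21.4 CPM against 138, 134 and 120 CPM (-2.60 ± 0.06). For both the lowest cortical library was several times the highest hippocampal library. Cplx3 and Rprm, genes of the deepest layers, had log2 fold changes of -3.44 and -2.25, and Cux2, the upper-layer homeobox factor, had -1.21. Fezf2, which directs corticospinal neuron fate, was -1.11 in snap-frozen and 0.77 in fresh tissue. Nxph4, a neurexophilin, and Foxp2, a forkhead factor, were among the 6 genes higher in hippocampus. Nxph4 was 26.8, 26.5 and 28.2 CPM against 5.27, 5.83 and 5.21 CPM (2.31 ± 0.08), and Foxp2 was 33, 35.3 and 33.6 CPM against 16.2, 17.9 and 15.4 CPM (1.03 ± 0.07). Foxp2 is also expressed in thalamus and midbrain. In fresh tissue both were higher in cortex, by -1.76 and -4.67.

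Among 66 patterning transcription factors, 25 (37.9%) were higher in hippocampus and 34 (51.5%) in cortex. Emx1, of the dorsal telencephalon, was 4, 4.05 and 5.56 CPM in hippocampus and 12.8, 13.4 and 12.7 CPM in cortex (-1.53 ± 0.11), lower in every hippocampal library. Emx2, which is required for the hippocampus to form, overlapped between regions, at 10.4, 10 and 9.58 CPM against 10.6, 9.35 and 7.27 CPM (0.13 ± 0.11, adjusted p = 0.32). Neurod1 and Bcl11b did not pass the test either, with log2 fold changes of 0.08 ± 0.09 and 0.07 ± 0.04, while their fresh values were 1.30 and 0.72.

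Of 31 pairs of related genes, both members were tested in all 31, and in 15 pairs the members differed significantly in opposite directions, 13 of which are described here. The pairs were chosen with earlier results known and unrelated pairs were not counted, so 15 of 31 is a description. Lhx2 and Lhx9 were furthest apart. Lhx2, which maintains cortical identity, was 42, 39.4 and 37.1 CPM in hippocampus and 63.4, 59.5 and 54 CPM in cortex (-0.59 ± 0.06), against 4.52 for Lhx9, a difference of -5.11 between the log2 fold changes. The pairs Slc17a7 and Slc17a6, Calb1 and Calb2, and C1ql2 and C1ql3 had differences of -3.97, -3.43 and 3.30, first member minus second, although 64.2% of the exon length of C1ql3 lies opposite another gene. The serotonin receptors Htr2a (-1.82) and Htr2c (0.63) and the corticosteroid receptors Nr3c1 (-0.52) and Nr3c2 (1.33) also split. So did Foxp1 (-1.19), whose counts were not all whole so that its reads may be shared with another gene, and Foxp2. Zbtb18 and Zbtb20, Grin2a and Grin2b, Meis1 and Meis2, Hpca and Hpcal4, and Rora and Rorb were split as well. Tshz1 and Tshz2 also split, with Tshz2 close to the threshold (adjusted p = 0.049). Fresh values were also of opposite sign for Slc17a7 and Slc17a6, with the order reversed, and for Calb1 and Calb2, Nr3c1 and Nr3c2, and Hpca and Hpcal4, with the order unchanged.

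**Figure D4:**
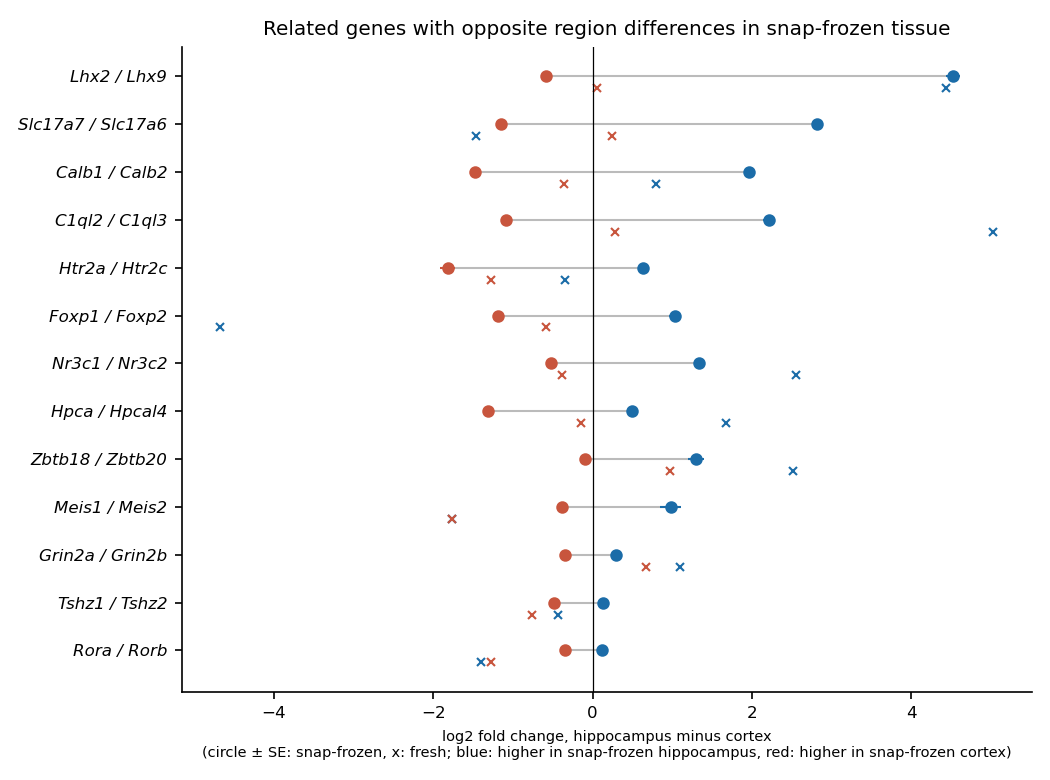
Log2 difference between hippocampus and cortex of both members of 13 split gene pairs, circles with SE bars for snap-frozen tissue and crosses for fresh tissue. Lhx9 at 4.52 and Lhx2 at -0.59 are furthest apart, and the crosses of Slc17a7 (0.24) and Slc17a6 (-1.46) lie in the reverse order of their circles (-1.15 and 2.82).

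Neuronal class markers differed in both directions. Of 15 excitatory neuron genes, 4 were higher in hippocampus and 11 in cortex (median -0.74), and the list summed to 6420 to 6470 CPM in hippocampus and 9090 to 9530 CPM in cortex. In fresh tissue 9 of these genes were higher in hippocampus and 6 in cortex (median 0.14). The fresh sums were 11200 to 11400 CPM in hippocampus and 9460 to 9540 CPM in cortex. Arpp21, a cAMP-regulated phosphoprotein, was 125, 129 and 125 CPM against 564, 573 and 590 CPM (-2.20 ± 0.04). Sv2b, a synaptic vesicle protein, was 249, 241 and 236 CPM against 663, 660 and 671 CPM (-1.47 ± 0.03). Of 20 inhibitory neuron genes, 7 (35%) were higher in hippocampus, near the share of all tested genes, and 12 (60%) in cortex (median -0.68). The GABA-synthesising enzymes Gad1 and Gad2 and the calcium-binding protein gene Pvalb were higher in hippocampus by 0.17, 0.35 and 0.88, while the interneuron peptides Sst, Npy and Vip were higher in cortex by -0.81, -1.45 and -2.22. In fresh tissue Gad1, Gad2 and Pvalb were -0.26, -0.61 and -0.55.

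Receptor genes were found in both directions. Of 25 glutamate receptor genes, 9 (36%) were higher in hippocampus and 9 (36%) in cortex (12 and 7 with library totals), which is close to the 33.7% and 31.0% of all tested genes. Of 15 GABA-A receptor subunit genes, 5 (33.3%) and 8 (53.3%) were (6 and 6 with library totals). Gria1, an AMPA receptor subunit, was 739, 745 and 730 CPM in hippocampus and 422, 435 and 408 CPM in cortex (0.79 ± 0.03). Grin2d, an NMDA receptor subunit of subcortical neurons and interneurons, was 38.7, 36.5 and 35.7 CPM against 14, 13.6 and 12.3 CPM (1.46 ± 0.07), and in fresh tissue its levels were close at 15 and 14.6 CPM. Gabrd, the delta subunit of extrasynaptic GABA-A receptors, was 15.3, 18 and 16.9 CPM against 72.6, 73.3 and 76.4 CPM (-2.16 ± 0.06). None of the 3 genes overlapped between regions, but they were picked as members with a small p. Grm5, a metabotropic receptor gene, was at the threshold (log2 -0.08, adjusted p = 0.045) and moved to 0 with library totals. Gabra4 had a log2 fold change of -1.03 and Gabra5, a subunit abundant in hippocampal pyramidal cells, had 0.62, against 2.00 in fresh tissue. Of 28 monoamine and muscarinic receptor genes, 8 (28.6%) were higher in hippocampus and 15 (53.6%) in cortex, with Htr4 at 1.73 and Chrm4, of striatal neurons, at -2.40.

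Neuropeptide, channel and calcium-binding genes were counted in the same way, beside 33.7% and 31.0% for all tested genes. Of 30 neuropeptide and granin genes, 3 (10%) were higher in hippocampus and 21 (70%) in cortex (median -0.62; 5 in hippocampus with library totals), with the dynorphin and cholecystokinin precursor genes Pdyn at -1.89 and Cck at -1.15. Of 68 potassium channel genes, 22 (32.4%) were higher in hippocampus, near the share of all genes, and 36 (52.9%) in cortex. Kcnv1, a modifier subunit, was 27.4, 27.8 and 27.2 CPM against 162, 165 and 173 CPM (-2.61 ± 0.05), and Kcnf1 and Kcnj4 had log2 fold changes of -2.23 and -1.97. Kcng4, another modifier subunit, was higher in hippocampus at 32.2, 29.8 and 34.5 CPM against 8.82, 9.35 and 8.53 CPM (1.84 ± 0.08), although its fresh levels were 9.33 and 9.29 CPM. These channel genes had no overlapping library. Of 20 calcium-binding protein genes, 5 (25%) were higher in hippocampus and 13 (65%) in cortex. Cabp7 was 239, 237 and 235 CPM in hippocampus and 59.5, 56 and 57.8 CPM in cortex (2.02 ± 0.04), Necab1 and Hpcal4 had log2 fold changes of -1.62 and -1.31. Among 16 steroid and retinoid receptor genes, 5 (31.2%) were higher in hippocampus and 10 (62.5%) in cortex. Nr3c2, the mineralocorticoid receptor, which is enriched in hippocampal neurons, was 126, 126 and 125 CPM against 49.5, 51.7 and 46.6 CPM (1.33 ± 0.04), and Rxrg, a retinoid receptor, had -2.51. Eph receptors and ephrins, which guide axons, were higher in hippocampus for 10 of 20 genes (50%) and in cortex for 6 (30%), with Epha6 at 0.87, Ephb1 at 0.88 and Efnb2 at -1.66.

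Genes of myelinating cells and astrocytes were higher in hippocampus. All 16 tested oligodendrocyte genes were higher (median 0.80, against 0.10 in fresh tissue), and the list summed to 10900 to 11000 CPM in hippocampus and 6220 to 6420 CPM in cortex. Mbp, the myelin basic protein gene, was 4630, 4650 and 4650 CPM in hippocampus and 2860, 2850 and 2750 CPM in cortex (0.71 ± 0.03). Trf, the transferrin gene, was 722, 707 and 726 CPM against 373, 380 and 354 CPM (0.95 ± 0.03). Hippocampal libraries were higher without overlap for both. Of 13 oligodendrocyte precursor genes, 9 were higher and 1 lower in hippocampus (median 0.47; the lower gene did not pass with library totals). Of 16 astrocyte genes, 13 were higher and 2 lower (median 0.41, against -0.08 in fresh tissue). Agt, the angiotensinogen gene, which astrocytes of thalamus, midbrain and hypothalamus express most, was 91.8, 90.9 and 90.3 CPM in hippocampus and 19.2, 18.2 and 17.9 CPM in cortex (2.29 ± 0.05), while its fresh levels were 26.8 and 19.9 CPM. Gfap, an intermediate filament gene, and Aqp4, the water channel gene, had log2 fold changes of 0.88 and 0.76.

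In snap-frozen tissue, microglial genes were lower in hippocampus and most vascular genes higher. Of 17 tested microglial genes, 16 were lower in hippocampus, with a median of -0.39 and a summed level of 607 to 613 CPM against 790 to 795 CPM. P2ry12, the purinergic receptor of resting microglia, was 35.2, 32.6 and 31.9 CPM against 47.8, 49.9 and 53.5 CPM (-0.62 ± 0.06), and Csf1r, the receptor on which microglia depend, had -0.39. Of 16 endothelial genes, 11 were higher and 3 lower in hippocampus (the lower genes did not pass with library totals), with Slc2a1, the glucose transporter of the barrier, at 0.34 and Flt1 at 0.42. The endothelial list summed to 1070 to 1120 CPM in hippocampus and 1010 to 1100 CPM in cortex. Of 13 pericyte and smooth muscle genes, 11 were higher, with Acta2 at 0.98 and Myh11 at 1.21. In fresh tissue the vascular lists went the other way, beside 28.5% of all tested genes higher in hippocampus and 27.8% in cortex. All 16 endothelial genes were lower in fresh hippocampus (median -0.79). Of the pericyte and smooth muscle genes, 9 were lower and 1 higher (median -0.40). Of the microglial genes, 6 were lower and 3 higher in fresh hippocampus (median -0.10).

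Genes of the brain's borders and ventricles were divided. All 12 ependymal genes were higher in hippocampus (median 1.78), where they summed to 56.2 to 61.4 CPM against 18.6 to 21.4 CPM in cortex. Foxj1, which drives motile cilia, was 14.5, 13.2 and 15.9 CPM against 5.27, 5.14 and 3.78 CPM (1.60 ± 0.11). Of 13 tested choroid plexus genes, 5 (38.5%) were higher and 7 (53.8%) lower, with Ttr at -4.17 and Kl, the klotho gene, at 0.66. Otx2 was counted among the 5 and belongs to the midbrain list as well. Of 14 meningeal fibroblast genes, 5 (35.7%) were higher in hippocampus, near the share of all tested genes, and 8 (57.1%) lower. This balance became 5 and 4 with library totals. Ogn was at -1.19 and Igf2 at -0.55. Of 6 tested blood cell genes, 5 were lower in hippocampus, but the haemoglobin genes among them share reads with near-identical copies.

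Of genes that respond to activity or stress, more immediate early genes were higher in cortex than in hippocampus, while the balance of heat shock genes depended on the scaling. Of 34 immediate early genes, 9 (26.5%) were higher in hippocampus and 16 (47.1%) in cortex (median -0.12). The list summed to 1080 to 1090 CPM in hippocampus and 1490 to 1560 CPM in cortex. Egr1, a zinc-finger factor, was 109, 106 and 107 CPM in hippocampus and 228, 225 and 197 CPM in cortex (-1.03 ± 0.05). Homer1, a postsynaptic scaffold gene with an activity-induced short form, was 66.4, 68 and 62.6 CPM against 197, 202 and 192 CPM (-1.60 ± 0.04), and Arc, of activity-regulated synapses, was higher in hippocampus by 0.61. Of 23 heat shock genes, 6 (26.1%) were higher in hippocampus and 9 (39.1%) in cortex, beside 33.7% and 31.0% of all tested genes. This balance turned to 10 and 7 with library totals. The chaperone gene Hsph1 was -0.30 and Bag3, also of that list, was 0.89.

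The regional difference after snap freezing was then set against that of fresh and of vitrified tissue in a fit of all 18 libraries. In fresh tissue, 4227 of 14827 genes (28.5%) were higher in hippocampus and 4129 (27.8%) in cortex, and in vitrified tissue 4226 (28.5%) and 4245 (28.6%). With a log2 fold change over 1, 1452 genes differed between regions after snap freezing and 1508 in fresh tissue, and 578 did so in the same direction, which is 39.8% of the former and 38.3% of the latter, while 68 were opposite. Of 892 genes (6.02% of those tested) higher in snap-frozen hippocampus, 28.3% were also among the 587 (3.96%) higher in fresh hippocampus. Of 560 (3.78%) higher in snap-frozen cortex, 58.2% were also among the 921 (6.21%) higher in fresh cortex. For vitrified tissue, with 501 (3.38%) and 806 (5.44%) genes, these shares were 20.3% and 53.9%. Taken as shares of the fresh calls the order was reversed, with 42.9% of the genes higher in fresh hippocampus and 35.4% of those higher in fresh cortex also called after snap freezing. Without the fold rule the shares of the snap-frozen calls were 44.5% toward hippocampus and 46.4% toward cortex. Across genes, which are not independent replicates, the log2 differences of snap-frozen and fresh tissue had a Pearson correlation of 0.48.

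**Figure D5:**
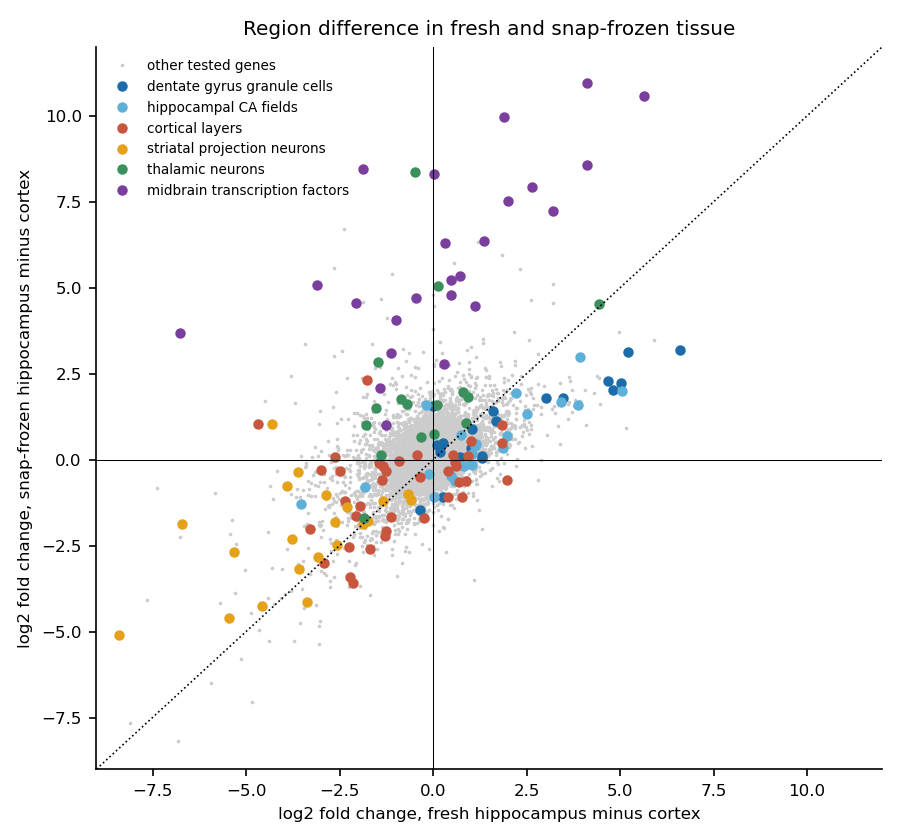
Log2 difference between hippocampus and cortex in snap-frozen tissue against that in fresh tissue, a point per gene of the 18-library fit, with marker lists coloured. Striatal genes lie low on both axes, most midbrain transcription factors lie high for snap-frozen tissue, and the Pearson correlation across 14827 genes is 0.48.

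The interaction test asked, per gene, whether the regional difference itself differed between states. Between snap-frozen and fresh tissue it was shifted toward hippocampus for 4202 genes (28.3%) and toward cortex for 3950 (26.6%), and by more than 1 on the log2 scale for 1135 (7.65%) and 415 (2.80%). With library totals the former split was 5550 and 2649, which is 67.7% and 32.3% of calls against 51.5% and 48.5%, and the median of all genes moved by 0.12. The majority turned toward cortex in other settings, with 3796 and 4418 genes in a fit of only the 12 libraries of the 4 groups, 3701 and 4338 without snap-frozen hippocampus replicate 2, and 3695 and 4373 without snap-frozen hippocampus replicate 3, so no majority direction is drawn from these counts. Between snap-frozen and vitrified tissue the counts were 4387 (29.6%) and 4124 (27.8%), and by more than 1, 1116 (7.53%) and 418 (2.82%). Slc17a6 shifted by 4.29 and Slc17a7 by -1.38 against fresh tissue (adjusted p = 2.1e-34 and 6.9e-34), Tcf7l2 by 4.90 and Foxp2 by 5.71. For Lhx9 the shift of 0.10 did not pass the test (adjusted p = 0.78). Among lists, all 16 oligodendrocyte genes shifted toward hippocampus. So did 13 of 16 thalamic genes, a description only, since that list was taken up with earlier results known. Of the midbrain transcription factors, 17 of 24 did, but that list was assembled after its values were seen and most of its members passed the filter through snap-frozen hippocampus, so the count is a description. Of 20 dentate genes, 15 shifted toward cortex and 3 toward hippocampus, and of 22 CA genes, 17 and 3. Cortical layer genes were split, with 21 shifted toward cortex and 14 toward hippocampus. Of 21 striatal genes, 14 shifted toward hippocampus and 2 toward cortex, and 12 of 17 microglial genes shifted toward cortex. Vascular genes shifted toward hippocampus, 14 of 16 endothelial and 12 of 13 pericyte and smooth muscle genes, with 0 toward cortex. Of 15 excitatory neuron genes, 13 shifted toward cortex and 1 toward hippocampus. Lamp5 shifted by -0.10 (adjusted p = 0.21), so its regional difference of -3.03 in snap-frozen and -2.92 in fresh tissue was not shown to differ.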

How the data were processed

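Messenger RNA was measured in 18 mouse brain libraries, of which 6, from snap-frozen hippocampus and cortex, make up the main comparison. The authors deposited estimated counts per gene, not all of them whole, in a table for each region. Per the submitters' processing notes, HISAT2 2.0.4 and the build GRCm38.p6 were used; the counting tool, its strand setting and the gene annotation were not given in the sources used here, so reads shared by near-identical or overlapping genes could have been split in ways that affect 1647 genes with signs of sharing. Tables were joined by gene symbol (18389 and 18235 genes, 18235 in both), and counts were rounded to whole numbers.

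Genes with low counts were removed with filterByExpr, libraries were scaled by TMM, and the regional contrast was tested by quasi-likelihood F tests (edgeR 4.0.16, R 4.3.3). A gene was called at a Benjamini-Hochberg adjusted p of at most 0.05. The SE is the size of the log2 fold change divided by the root of F. The 18-library fit gave the other states and the interactions, and CPM came from its TMM factors. Alternatives used DESeq2 1.42.0, limma 3.58.1 (voom), other scalings, filters, a replicate block and leaving out each replicate. The scripts were tested on simulated counts.

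Genes are named by rule: the 10 largest differences each way among called genes with at least 5 CPM in the higher group and no overlap, the 5 largest interactions each way by the same rule, a fixed set, up to 4 called members of each list with the smallest p, and opposed gene pairs. Predicted genes were left out. Members, lists and rules were chosen with earlier results of these data known, and other genes named, such as Emx1 and Emx2, were chosen after their values were seen. Some genes that these rules name are not reported here.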

Additional observations from a re-analysis of the deposited data

Results flagged for a closer look

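The genes below are listed because the difference between hippocampus and cortex itself differed between tissue states in the interaction test of edgeR at an adjusted p of at most 0.05. Values are log2 differences of the regional difference, with positive values for a shift toward hippocampus in snap-frozen tissue, and the part of thalamic and midbrain transcripts in them was not tested. Values for genes with at most 3 counts in a group, among them Barhl1, Shox2, Tfap2d, Pou4f1 and Cnpy1, depend on the prior count of the fit.

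Between snap-frozen and fresh tissue, the transcription factor genes Tfap2d, Barhl1, Shox2 and Tfap2b had values of 10.44, 10.33, 8.83 and 8.18, and Sfrp5, a secreted Wnt antagonist gene, had 6.78. Slc17a6 had 4.29 and Slc17a7 had -1.38. The largest shifts toward cortex were in Dio3, the gene of a thyroid hormone-inactivating deiodinase, at -4.58, Slc9a4, a sodium-proton exchanger gene with 21.3% of its exon length opposite another gene, at -4.23, Dsp at -3.41, Krt2, a keratin gene, at -3.40 and Spink8, a protease inhibitor gene of CA1, at -3.07. Other hippocampal genes had values of -1.54 for Neurod6, -1.21 for Prox1, -1.21 for Nr3c2, -1.20 for Zbtb20 and -1.16 for Hpca. Calb1 and Wfs1, both higher in cortex than in hippocampus after snap freezing, had -1.10 and -0.31. Calb1 was higher in cortex in fresh tissue as well (-0.36). Cortical layer genes went both ways, with Tbr1 at -0.89, Cux2 at 1.17 and Rorb at 0.93. Of genes of other cell types, Ttr had 1.54, Aqp4 0.84, Mbp 0.67 and Gad1 0.44.

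Between snap-frozen and vitrified tissue, the values were 10.46 for Tfap2d, 9.63 for Shox2, 9.53 for Cnpy1, 7.99 for Pou4f1 and 7.97 for Six3. Toward cortex they were -7.04 for Ttr, -4.63 for Dsp, -3.71 for Krt2, -3.69 for Slc9a4 and -3.33 for Glp2r. In vitrified tissue Ttr was higher in hippocampus, by 2.88 on the log2 scale.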

How the results depend on the processing

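Counts of called genes stayed within 1.5 times under every alternative that was run. Higher in hippocampus and in cortex, they were 4730 and 4712 with the RLE factors of DESeq2, 4107 and 4138 with DESeq2, 4887 and 4500 with limma-voom, 4948 and 4627 with no filter, and 4784 and 4408 with at least 1 CPM in 3 libraries. Leaving out each library in turn gave 4500 to 4784 and 4149 to 4699, and over 1 on the log2 scale 860 to 899 and 545 to 561. For the shift between snap-frozen and fresh tissue these ranges were 3695 to 4372, 3494 to 4373, 1075 to 1215 and 384 to 461, and between snap-frozen and vitrified tissue 3878 to 4590, 3602 to 4447, 1042 to 1205 and 389 to 463. With library totals, Grm5 moved to 0 (adjusted p = 0.96) and the shift of Lamp5 against fresh tissue to 0 (adjusted p = 0.99), each with its sign turned; the cause was not tested. The shift of Barhl1 was 8.48 with adjusted p = 1 without fresh cortex replicate 2. Same-numbered libraries of the regions did not deviate together (correlations 0.054, 0.032 and 0.02), and a replicate block gave 4928 and 4536 genes, and 4207 and 3964 for the shift against fresh tissue. Of the values of named genes for the snap-frozen regional difference under the alternatives, 2131 kept their direction and call, 22 lost the call, 2 gained it and 1 turned. Of those for the shift against fresh tissue, 558 kept them, 1 lost the call and 1 turned, and for the shift against vitrified tissue 200 kept them. In genes near 0, depth limits the size of the difference that can be given.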
